A study of Gallus gallus with 54 samples.

Results

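Matrix proteases and their inhibitors were followed through the granulosa cell (GC) and theca cell (TC) layers of chicken ovarian follicles, above all in F1, the follicle that stands next in line for ovulation. The genes were taken by name, namely the matrix metalloproteinases (MMP), the ADAM and ADAMTS proteases, the tissue inhibitors of metalloproteinases (TIMP), the plasminogen activators PLAU and PLAT and the SERPINE inhibitors, each with a single locus. Of 26619 genes in the table, 50 met this rule, with 13 MMP, 14 ADAM, 16 ADAMTS, 3 TIMP (TIMP2, TIMP3 and TIMP4) and 4 genes of plasminogen activation (PLAU, PLAT, SERPINE2 and SERPINE3). The rule goes by gene name alone.

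All hens were White Leghorns of 35 to 40 weeks. Treated hens received bicalutamide, an antagonist of the androgen receptor, at 15 mg (bic15), or mestanolone, an androgenic steroid, at 100 mg (mes100), and the blank group (NC) received water. Feeding went on for 4 days, and follicles were taken after 1 day without the drug. Each group was 1 treatment, 1 layer and 1 stage (small yellow follicles of 6 mm, F5 or F1), which gave 18 groups of 3 libraries and 54 in all. Treated hens that carried more than 6 large follicles had every additional unlabelled follicle recorded as F1, so a treated F1 follicle need not be a single leading follicle.

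The replicate is the hen, and at F1 some libraries came from the same hen. The 3 bic15 F1 GC libraries were of 1 hen, the 3 bic15 F1 TC libraries of 2 hens (replicates 1 and 2 of the same hen), and the 3 NC F1 GC libraries of 2 hens (replicates 1 and 2 of the same hen). All other groups held 3 hens. Libraries of 1 hen were therefore summed before every test, while levels are given for each library in the order of replicates 1, 2 and 3. In the deposited table the libraries of such a hen and layer carry the same sample number with a different suffix, while every other sample has a number of its own, so they may be repeat libraries of a single tissue sample.

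Proteolysis of the extracellular matrix is part of how a follicle wall grows, thins and finally opens. MMPs are zinc enzymes that cut collagens, gelatins and other matrix proteins, ADAM proteases mostly release the outer parts of membrane proteins, and ADAMTS proteases process procollagen or cut proteoglycans. TIMPs block these metalloproteinases, and PLAU and PLAT turn plasminogen into plasmin, which SERPIN inhibitors hold in check. The avian follicle wall has an inner granulosa layer without blood vessels, a basal lamina, and a theca layer with vessels, fibroblasts and steroid-producing cells.

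The total count of a library lay between 33310408 and 64933667 (median 46846094). The summed marker lists differed between the layers. A list of 12 theca and stroma genes, with CYP17A1 and COL1A1 among them, summed to 9760 to 12600 FPKM (fragments per kilobase of transcript, scaled to sequencing depth) in the NC F1 TC libraries and 51.8 to 149 FPKM in the NC F1 GC libraries. A list of 6 granulosa genes summed to 247, 269 and 766 FPKM in NC F1 TC, the highest in replicate 1, and to 2140 to 2440 FPKM in NC F1 GC. Of these 6, 5 to 6 reached 1 FPKM in the TC libraries and 4 in the GC libraries. INHA (1480, 1420 and 1600 FPKM) made up most of the GC sums. AMH was higher in TC (8.55, 9.97 and 7.27 FPKM) than in GC (0.479, 0.697 and 0.188 FPKM), and so was OCLN (1.97, 2.78 and 2.06 FPKM, against 0.704, 0.935 and 0.487 FPKM). The other genes of the list were higher in GC. In NC F5 TC the granulosa list reached 233, 623 and 1030 FPKM. At 6 mm, GC libraries of NC hens 1 and 3 held 2690 and 2530 FPKM of the theca list, against 83.2 FPKM in hen 2. In bulk RNA, fewer cells of a type and less RNA per cell cannot be told apart, and the part of other cells in the values below was not tested except where values without these libraries are given.

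More of these genes were detected in TC than in GC of the F1 follicle. In NC hens 38 of the 50 genes reached a mean of 1 FPKM in F1 TC and 21 of 50 in F1 GC, and 6 genes in TC and 3 in GC reached 100 FPKM. The share of all genes at these levels in each layer is not given here, so these counts are a description only. In NC F1 TC the highest means over hens were those of MMP9 (2100 ± 439 FPKM, SD, n = 3 hens), MMP10 (1480 ± 259 FPKM), TIMP2 (1230 ± 81.1 FPKM), TIMP3 (233 ± 45.0 FPKM) and ADAMTS2 (109 ± 14.6 FPKM). NC F1 GC was led by ADAMTS3 (639 ± 245 FPKM, SD, n = 2 hens), TIMP2 (403 ± 22.8 FPKM), MMP15 (144 ± 1.48 FPKM), TIMP3 (82.7 ± 46.4 FPKM) and ADAM17 (34.0 ± 0.186 FPKM). Over all 9 F1 GC libraries, treated ones included, the order was TIMP2 (404 FPKM), ADAMTS3 (308 FPKM), TIMP3 (252 FPKM), MMP15 (126 FPKM) and ADAM23 (51.7 FPKM), and ADAM23 stood that high through the treated libraries. The inhibitors TIMP2 and TIMP3 were thus among the 5 highest genes of both layers, whereas the proteases among the 5 highest were different genes in each layer. This rests on the cut at 5 genes for MMP15, which had 99.2, 109 and 99 FPKM in NC F1 TC, close to ADAMTS2.

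**Figure D1:**
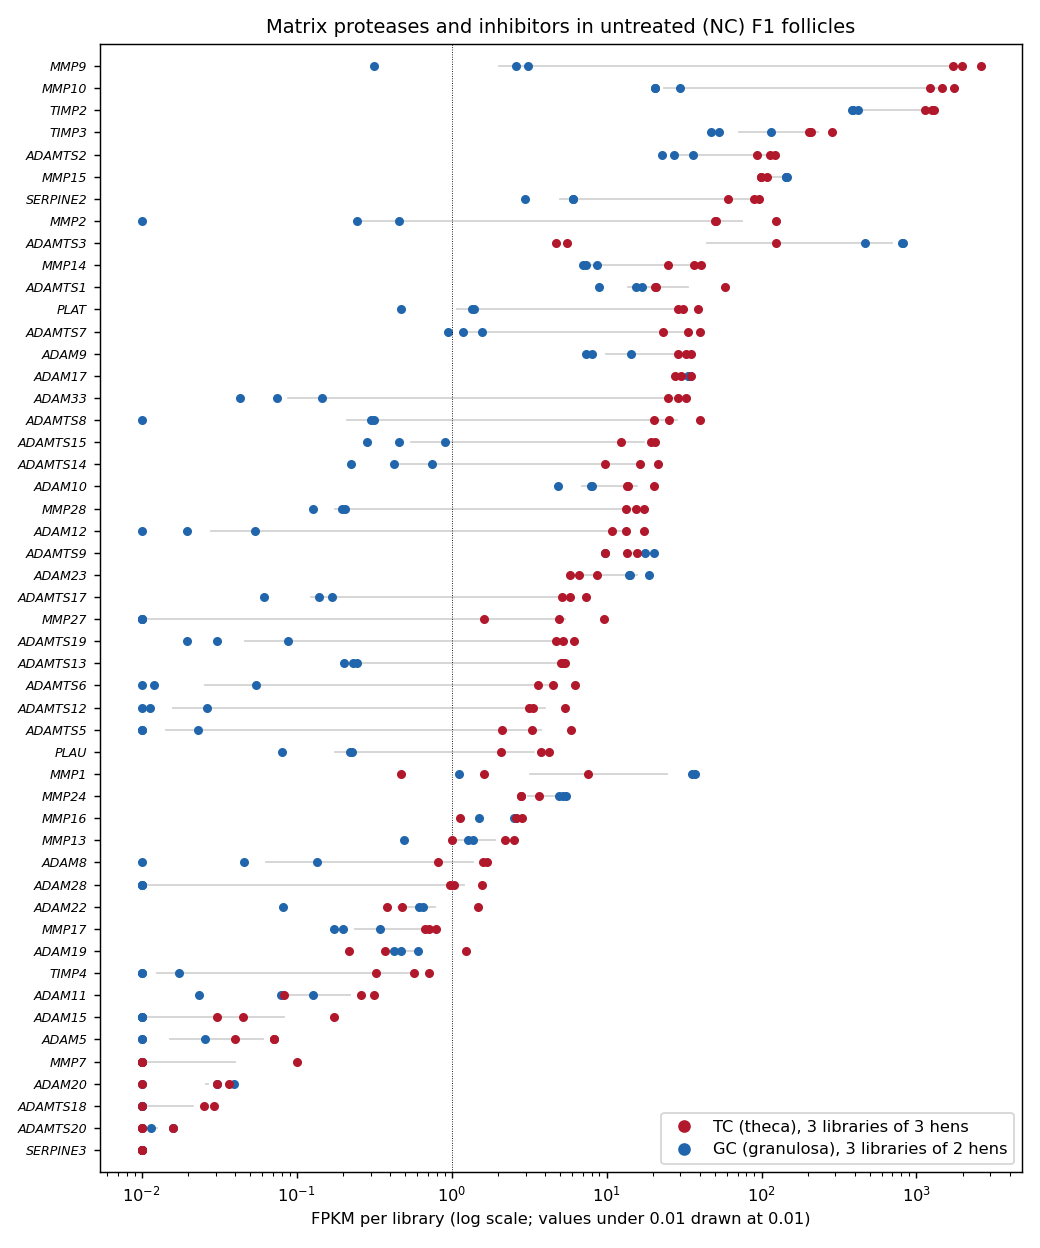
FPKM of the 50 genes (down the page) in the F1 follicle of NC hens on a log10 axis, TC in red and GC in blue, with 1 point for each library, values under 0.01 drawn at 0.01 and a grey line between the means of the layers. MMP9 lies at 1730 to 2590 FPKM in TC and at 0.315 to 3.12 FPKM in GC, while TIMP2 is at 386 FPKM or more in all 6 libraries.

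The comparison of layers asked which members differ between TC and GC of the NC F1 follicle. A call needed an adjusted p of at most 0.05 in edgeR's quasi-likelihood test, a group mean of 1 FPKM or more, and a log2 fold change of 1.5 or more in either direction. Of 44 members tested, 23 passed, 22 higher and 1 lower in TC, where 23.0% of all 16378 genes tested passed (16.9% higher and 6.08% lower). The median log2 fold change was 3.88 over the members and 0.19 over all genes. By family, 10 of 14 tested ADAMTS, 6 of 12 MMP, 4 of 12 ADAM, 3 of 3 plasminogen genes and 0 of 3 TIMP genes passed.

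Among the MMPs, the gelatinase MMP9 had 1730, 2590 and 1980 FPKM in NC F1 TC, against 3.12, 2.59 and 0.315 FPKM in NC F1 GC (log2 fold change 9.89, SE 1.45, adjusted p = 0.0102). MMP10, a stromelysin that cuts many non-collagen matrix proteins, had 1460, 1230 and 1750 FPKM in TC, against 20.5, 20.5 and 29.8 FPKM in GC (log2 fold change 5.49, SE 0.39, adjusted p = 0.00344). The lowest TC library exceeded the highest GC library by far for both. MMP28, called epilysin, had 13.4 to 17.5 FPKM in TC, against 0.196, 0.204 and 0.127 FPKM in GC (log2 fold change 6.11, SE 0.37). MMP15, a membrane-type enzyme, did not pass, with 99.2, 109 and 99 FPKM in TC, against 146, 144 and 143 FPKM in GC (log2 fold change -0.89, SE 0.19). Its libraries did not overlap between the layers, and its difference was below the fold threshold.

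The ADAMTS family showed the most calls. ADAMTS12 (log2 fold change 7.72), ADAMTS6 (7.48), ADAMTS8 (7.00), ADAMTS19 (6.56) and ADAMTS17 (5.37) were at or below 0.318 FPKM in every NC F1 GC library and higher in TC. ADAMTS13, which cuts von Willebrand factor in blood of mammals, had 5.11, 5.26 and 5.39 FPKM in TC, against 0.201, 0.231 and 0.246 FPKM in GC (log2 fold change 4.10, SE 0.22, adjusted p = 0.00293). ADAMTS7, which cuts cartilage oligomeric matrix protein, had 23.1, 40 and 33.5 FPKM in TC, against 1.19, 0.947 and 1.56 FPKM in GC (log2 fold change 4.21, SE 0.35). Both were at or below 1.56 FPKM in every GC library, without overlap with TC. ADAMTS15, a proteoglycan-cutting member, had 19.5, 20.5 and 12.4 FPKM in TC, against 0.285, 0.459 and 0.905 FPKM in GC (log2 fold change 4.43, SE 0.54).

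The procollagen N-proteinases, which trim the amino end of fibrillar procollagens, are ADAMTS2, ADAMTS3 and ADAMTS14. ADAMTS14 had 9.79, 21.5 and 16.5 FPKM in TC, against 0.428, 0.223 and 0.747 FPKM in GC, and was called (log2 fold change 4.47, SE 0.53). ADAMTS2 had 93.3, 122 and 113 FPKM in TC, against 27.1, 22.7 and 36.3 FPKM in GC, with a log2 fold change of 1.44 (SE 0.24, adjusted p = 0.0132), just under the fold threshold. ADAMTS3 did not pass, with 124, 4.75 and 5.52 FPKM in TC, against 813, 810 and 466 FPKM in GC. Its log2 fold change of -4.18 (SE 1.67) had an adjusted p of 0.0998, and TC replicate 1, the library with 766 FPKM of granulosa markers, stood far above the other TC libraries.

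Of the ADAM genes, ADAM33 had 24.8, 28.7 and 32.7 FPKM in TC, against 0.0429, 0.145 and 0.0743 FPKM in GC (log2 fold change 7.87, SE 0.29, adjusted p = 0.00293). ADAM12 (10.8 to 17.4 FPKM in TC, at most 0.0542 FPKM in GC, log2 fold change 8.24) was also higher in TC. ADAM28 had 734 counts over the TC libraries and 0 over the GC libraries, at least 224-fold higher with 3 counts over the group as the floor. ADAM23, an ADAM without protease activity that binds integrins, was the only member called lower in TC, with 8.69, 5.84 and 6.69 FPKM, against 14, 14.2 and 18.7 FPKM in GC (log2 fold change -1.61, SE 0.23, adjusted p = 0.00977). ADAM10, the protease that releases Notch and other receptors, had 13.7, 13.6 and 20.1 FPKM in TC, against 8.05, 7.92 and 4.87 FPKM in GC (log2 fold change 0.88, adjusted p = 0.088).

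In the plasminogen system both activators and 1 inhibitor were higher in TC. PLAT had 28.8, 39 and 31.3 FPKM in TC, against 1.36, 1.4 and 0.475 FPKM in GC (log2 fold change 4.70, SE 0.61, adjusted p = 0.00822). PLAU had 3.8, 2.09 and 4.28 FPKM in TC, against 0.22, 0.229 and 0.0799 FPKM in GC (log2 fold change 4.00, SE 0.72, adjusted p = 0.0149). SERPINE2, an inhibitor of thrombin and plasminogen activators, had 61, 96.9 and 89.8 FPKM in TC, against 6.06, 6.08 and 2.99 FPKM in GC (log2 fold change 3.75, SE 0.46, adjusted p = 0.00748). PLAT was thus the more abundant activator in both layers of NC F1 follicles. Over all 9 F1 GC libraries, treated ones included, the mean was 2.52 FPKM for PLAU and 1.67 FPKM for PLAT. SERPINE3 was at 0 in all 18 F1 libraries.

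None of the TIMPs passed both thresholds between the layers. TIMP2 had 1140, 1260 and 1290 FPKM in TC, against 386, 389 and 420 FPKM in GC, a log2 fold change of 1.21 (SE 0.22, adjusted p = 0.0151) below the fold threshold. TIMP3, which also inhibits ADAM and ADAMTS enzymes and is bound to the matrix, had 284, 210 and 203 FPKM in TC, against 46.9, 52.8 and 115 FPKM in GC (log2 fold change 1.13, SE 0.42, adjusted p = 0.0809). TIMP4 was below 1 FPKM in all 6 libraries. NC hens 2 and 3 gave both layers at F1, and hen 1 gave TC only. With the hen as a block, 17 members were called, and ADAM12, ADAM28, ADAMTS8 and PLAU (adjusted p = 0.0522, 0.0536, 0.0617 and 0.0854) and ADAMTS5, MMP2 and MMP14 lost their calls. The share of all genes called in that fit is not given here. Without TC hen 2 or hen 3, ADAMTS8 had an adjusted p of 0.0623 or 0.0676.

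MMP2, MMP14, MMP27 and ADAMTS5, the other members called here, were singled out after their values were seen, as were MMP1, MMP17, ADAM9, ADAM17, ADAMTS1, ADAMTS9 and ADAMTS18 below. The gelatinase MMP2 had 50.7, 50.2 and 124 FPKM in TC, against 0.244, 0.46 and 0 FPKM in GC (log2 fold change 8.28, SE 1.82, adjusted p = 0.0227). The membrane-type MMP14, which activates pro-MMP2, had 24.9, 36.6 and 40.5 FPKM in TC, against 7, 8.69 and 7.37 FPKM in GC (log2 fold change 1.77, SE 0.30). MMP27 had 1153 counts in TC and 0 in GC, at least 352-fold higher by the same floor. The collagenase MMP13 did not pass at F1, with 2.22, 1.01 and 2.53 FPKM in TC, against 1.27, 1.37 and 0.49 FPKM in GC (log2 fold change 0.67, SE 0.67), but was called higher in TC at F5, with 2062 counts in TC and 0 in GC (at least 668-fold higher).

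At the earlier stages TC again held more calls. At F5, 26 of 47 tested members passed, 24 higher and 2 lower in TC (20.4% of all genes; 13.7% higher and 6.73% lower), and at 6 mm 16 of 47, 13 higher and 3 lower (13.9% of all genes; 6.44% higher and 7.49% lower). At an unadjusted p under 0.05, 39 members stood at F5 (51.3% of all genes) and 29 at 6 mm (43.0% of all genes). The 6 mm count was 6 without any of the NC TC hens in turn and 29 (19.7% of all genes) without the GC hens 1 and 3 whose theca markers were high, an alternative chosen after seeing the data that leaves 1 GC hen, assumed to vary like the TC hens. ADAM23 was called lower in TC at all 3 stages. PLAU was higher in TC at F1 but lower in TC at 6 mm, where it had 1.77, 2.5 and 4.71 FPKM in TC, against 14.5, 38.5 and 44.2 FPKM in GC.

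In the granulosa layer members differed in both directions between F1 and F5. Of 40 members tested between NC F1 and F5 GC, 14 passed, 7 higher and 7 lower in F1 (20.3% of all genes; 8.26% higher and 12.0% lower). The median log2 fold change was -0.27 over the members and -0.15 over all genes. ADAMTS3, ADAMTS2, ADAMTS1, TIMP2, MMP15, MMP10 and MMP1 rose, whereas ADAM10, ADAMTS6, ADAMTS7, ADAMTS13, ADAMTS15, PLAU and TIMP4 fell. The theca and stroma list summed to 51.8 to 149 FPKM in NC F1 GC (2 to 7 of 12 markers at 1 FPKM or more), against 10.1 to 15 FPKM in NC F5 GC (3 to 4 of 12). Its genes did not all move this way. TAGLN had 61.7, 56.2 and 41.7 FPKM in F1, against 0, 0.143 and 0.26 FPKM in F5. COL3A1, a collagen of stroma, had 34.7, 32.8 and 0.214 FPKM in F1, against 0.348, 0.308 and 0.872 FPKM in F5. MYH11 was lower in F1, with 0.16, 0.189 and 0.0144 FPKM, against 2.57, 2.1 and 2.86 FPKM in F5. CYP17A1 was lower in F1 too, and at or below 1.74 FPKM in all 6 libraries. Their part in the calls was not tested.

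Both procollagen N-proteinases with substantial levels in F1 GC rose steeply. ADAMTS3 had 5.89, 2.13 and 7.26 FPKM in NC 6 mm GC, 1.92, 3.3 and 1.78 FPKM in F5 GC and 813, 810 and 466 FPKM in F1 GC. Its fold change between F1 and F5 was 379-fold (log2 fold change 8.57, SE 0.51, adjusted p = 0.000914). ADAMTS2 had 1.81, 1.35 and 1.07 FPKM at 6 mm, 0.449, 1.38 and 1.29 FPKM at F5 and 27.1, 22.7 and 36.3 FPKM at F1 (F1 over F5, log2 fold change 5.35, SE 0.54, adjusted p = 0.00217). For both genes all F1 libraries lay above all libraries of the earlier stages. ADAMTS14, the remaining N-proteinase, did not pass, with 1.17, 7.28 and 6.66 FPKM at F5 and 0.428, 0.223 and 0.747 FPKM at F1 (log2 fold change -2.74, SE 0.88, adjusted p = 0.0583).

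TIMP2 had 68.6, 57.4 and 141 FPKM at 6 mm, 18.4, 42.7 and 13.4 FPKM at F5 and 386, 389 and 420 FPKM at F1, 22.3-fold higher in F1 than in F5 (log2 fold change 4.48, SE 0.54, adjusted p = 0.00346). TIMP4 fell to 0.0175, 0 and 0 FPKM in F1, against 1.84, 1.18 and 1.64 FPKM in F5 (log2 fold change -7.09, SE 1.08, adjusted p = 0.0064). TIMP3 did not pass, with 46.9, 52.8 and 115 FPKM in F1, against 14.4, 139 and 89.3 FPKM in F5 (log2 fold change 0.48, SE 0.86), and the libraries of the stages overlapped. The 3 inhibitors thus followed 3 different courses in GC.

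Among the MMPs, MMP15 had 70.4, 94.1 and 65.3 FPKM at 6 mm, 35.8, 58.7 and 47.9 FPKM at F5 and 146, 144 and 143 FPKM at F1 (F1 over F5, log2 fold change 2.07, SE 0.27, adjusted p = 0.00411). MMP10 had 20.5, 20.5 and 29.8 FPKM in F1, against 0.369, 0 and 0.57 FPKM in F5 (log2 fold change 6.80, SE 1.30, adjusted p = 0.0126). At 6 mm its 117, 0 and 8.94 FPKM were high in the hens with theca markers. The collagenase MMP1 had 37.1, 35.8 and 1.12 FPKM in F1 and 0 counts in F5, at least 2750-fold higher with the floor of 3 counts over the group. The 2 high MMP1 libraries were the 2 from hen 2. Without F1 hen 3, MMP10 had an adjusted p of 0.0586.

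ADAMTS15 was the most abundant member of F5 GC that fell. It had 37, 129 and 61.7 FPKM at 6 mm, 87.8, 143 and 167 FPKM at F5 and 0.285, 0.459 and 0.905 FPKM at F1, 154-fold lower in F1 than in F5 (log2 fold change -7.26, SE 0.65, adjusted p = 0.00168). ADAM10 had 79.9, 74.2 and 71.7 FPKM at 6 mm, 50.7, 62.4 and 57.4 FPKM at F5 and 8.05, 7.92 and 4.87 FPKM at F1 (F1 over F5, log2 fold change -2.67, SE 0.32, adjusted p = 0.00332). PLAU had 14.5, 38.5 and 44.2 FPKM at 6 mm, 3.14, 2.56 and 4.07 FPKM at F5 and 0.22, 0.229 and 0.0799 FPKM at F1 (F1 over F5, log2 fold change -3.88, SE 0.68, adjusted p = 0.00968). Each of these was lowest in the 3 F1 libraries, without overlap. ADAMTS6 (log2 fold change -5.46, SE 0.67), ADAMTS7 (-1.63) and ADAMTS13 (-1.80) also fell, although ADAMTS13 had an adjusted p of 0.0553 and ADAMTS1 also lost its call with the hen as a block, and ADAMTS7 and ADAMTS13 lost their calls without either F1 hen or without F5 hen 3.

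**Figure D2:**
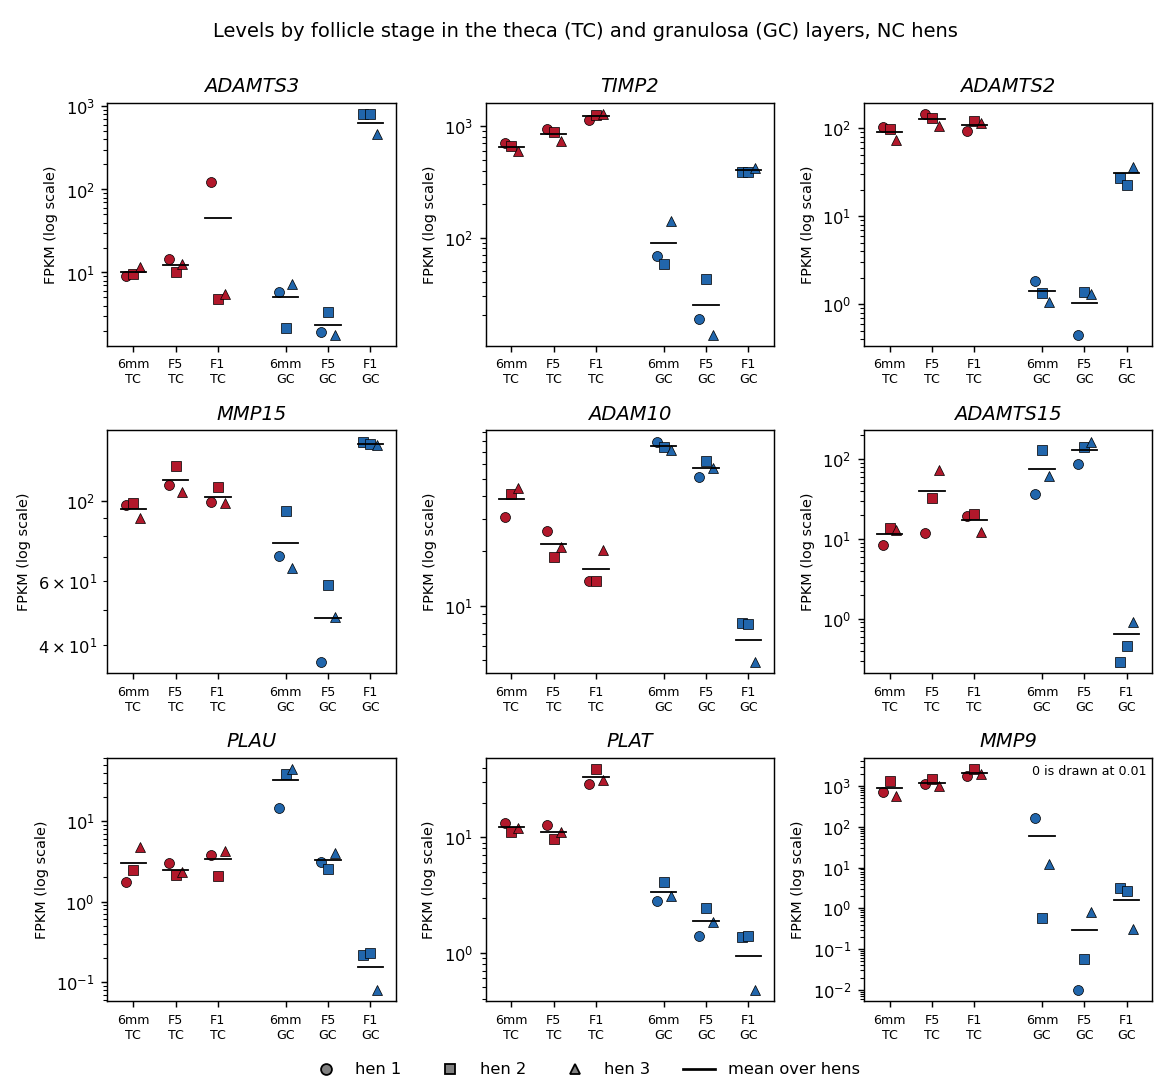
FPKM at 6 mm, F5 and F1 in NC hens for TC and GC, log10 axes, 1 point for each library, the marker shape for the hen and a line at the mean over hens, with values of 0 drawn at 0.01. In GC, ADAMTS3 and TIMP2 are highest at F1, with 466 to 813 and 386 to 420 FPKM, while ADAMTS15, ADAM10 and PLAU are lowest there.

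Between NC F1 and 6 mm GC, 11 of 46 tested members passed, 5 higher and 6 lower in F1 (22.1% of all genes; 9.99% higher and 12.1% lower). ADAMTS2 (log2 fold change 5.30), ADAMTS3 (7.87), TIMP2 (3.07), MMP15 (1.78) and MMP1 (8.06) rose. PLAU (-6.74), ADAMTS6 (-6.58), ADAMTS15 (-6.08), MMP28 (-5.41), ADAM10 (-2.66) and ADAMTS13 (-2.58) fell. Oocyte markers were lower too, at 0.111 to 0.722 FPKM in F1 GC (0 of 6 at 1 FPKM or more), against 93.3 to 219 FPKM in 6 mm GC (5 of 6), and their part in these values was not tested. With the hen as a block 0 members, and 0 of all genes, were called by edgeR's test, and 10 of these members kept their direction with adjusted p-values of 0.0544 to 0.136. Without 6 mm hens 1 and 3, which leaves 1 hen at 6 mm that is assumed to vary like the F1 hens, 8 members were called (9.14% of all genes), with MMP28, MMP15 and ADAMTS13 not among them. Between NC F5 and 6 mm GC 3 of 40 passed (6.16% of all genes), all lower in F5, namely ADAMTS1, MMP17 and PLAU, and 0 passed without hens 1 and 3, again with 1 hen left at 6 mm. An unadjusted p under 0.05 was found for 20 members (30.6% of all genes).

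In the theca layer few members passed. Between NC F1 and F5 TC, 2 of 45 tested members passed, both higher in F1 (2.13% of all genes; 1.13% higher and 0.991% lower), and 13 had an unadjusted p under 0.05 (25.1% of all genes). PLAT had 13.3, 11.2 and 12 FPKM at 6 mm, 12.9, 9.62 and 11.1 FPKM at F5 and 28.8, 39 and 31.3 FPKM at F1 (F1 over F5, log2 fold change 1.68, SE 0.17, adjusted p = 0.0139). ADAMTS8, which cuts aggrecan, had 4.38, 6.85 and 5.51 FPKM at 6 mm, 6.93, 5.84 and 6.9 FPKM at F5 and 20.2, 39.9 and 25.4 FPKM at F1 (F1 over F5, log2 fold change 2.23, SE 0.26, adjusted p = 0.016). All F1 libraries lay above all earlier ones for both genes. The calls depended on single hens, since 0 members passed without F5 hen 2 or F5 hen 3. With the hen as a block, a fit that keeps every hen, 0 members passed as well (adjusted p = 0.081 for PLAT and 0.0818 for ADAMTS8). Leaving out F1 hen 1 and F5 hens 2 and 3, whose granulosa markers were high, leaves 1 F5 hen, so the 0 calls of that fit say nothing of stability.

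Between NC F1 and 6 mm TC, 6 of 46 tested members passed, 4 higher and 2 lower (5.44% of all genes; 1.70% higher and 3.74% lower). PLAT (log2 fold change 1.68) and ADAMTS8 (2.59) rose again, with MMP9 and MMP1. Red blood cell markers summed to 332 to 453 FPKM in F1 TC, against 44.6 to 90.2 FPKM in 6 mm TC (3 of 6 at 1 FPKM or more in each library), and endothelial markers to 77.7 to 139 FPKM, against 146 to 188 FPKM (5 of 5 in each). Of the endothelial markers only PECAM1 and CDH5 were lower in every F1 library, while TEK, KDR and ESAM overlapped between the stages. The part of these markers in the values was not tested. MMP9 had 723, 1320 and 568 FPKM at 6 mm, 1090, 1520 and 983 FPKM at F5 and 1730, 2590 and 1980 FPKM at F1 (F1 over 6 mm, log2 fold change 1.51, SE 0.33, adjusted p = 0.0241). TIMP4 had 2.16, 1.46 and 2.41 FPKM at 6 mm, 0.761, 0.538 and 0.299 FPKM at F5 and 0.571, 0.327 and 0.715 FPKM at F1, and fell along with MMP17. PLAT and ADAMTS8 were called whichever hen was left out, while the count was 2 without 6 mm hen 1 or 3 and 3 without F1 hen 2, and MMP9 and TIMP4 lost their calls in these refits. MMP10 had 675, 763 and 651 FPKM at 6 mm and 1460, 1230 and 1750 FPKM at F1 (log2 fold change 1.33, SE 0.17, adjusted p = 0.00765), and TIMP2 had 709, 658 and 594 FPKM at 6 mm and 1140, 1260 and 1290 FPKM at F1 (log2 fold change 1.15, SE 0.13, adjusted p = 0.00636). Both passed the threshold on p but not that on the fold. Between NC F5 and 6 mm TC 2 of 46 passed (1.47% of all genes), MMP1 higher and TIMP4 lower.

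Whether the layers changed differently between F5 and F1 was tested by the interaction of layer and stage in NC hens. Of 48 members, 17 passed (19.3% of all genes), with 9 whose F1 to F5 ratio was higher in TC and 8 lower (9.75% and 9.57% of all genes), and 25 had an unadjusted p under 0.05 (35.9% of all genes). TIMP2 (difference of log2 fold changes -3.90, SE 0.57, adjusted p = 0.00253), ADAMTS2 (-5.50, SE 0.57, adjusted p = 0.000724) and MMP15 (-2.16, SE 0.31, adjusted p = 0.00229) had a higher ratio of F1 to F5 in GC than in TC. In TC these 3 genes had F1 over F5 log2 fold changes of 0.63, -0.10 and -0.03. ADAMTS15 (6.16, SE 1.01), PLAU (4.38, SE 0.70), TIMP4 (7.15, SE 1.13) and ADAM10 (2.26, SE 0.39) differed the other way, with F1 over F5 log2 fold changes in TC of -1.07, 0.57, 0.14 and -0.35, none of which passed. ADAM17, the sheddase of tumour necrosis factor, ranged from 26.5 to 53.3 FPKM in the 18 NC libraries. Its F1 over F5 log2 fold change differed by 0.00 (SE 0.28) between the layers, a term that does not compare their levels.

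The treatments asked what blocking or adding androgen action did to these genes. The drugs and doses differ, so their values are set side by side and not compared with each other. In F1 GC, bic15 and mes100 were each compared with the same NC hens in a fit of the 3 groups, in which the 1 bic15 hen was assumed to vary like the others. Neither comparison called a member, 0 of 41 each, as 0% of all 16845 genes tested were called. An unadjusted p under 0.05 was found for 11 members for bic15 (7 higher and 4 lower, where 21.1% of all genes had one) and for 14 for mes100 (8 higher and 6 lower, where 18.5% had one), with adjusted p of at least 0.145. DESeq2 called 5 members for bic15 (ADAM10, ADAMTS1, ADAMTS2, ADAMTS9 and MMP10) and 9 for mes100, of 47 each, where it called 11.7% and 9.39% of all genes. With the 3 libraries of a group treated as separate replicates, although hens repeat, edgeR called 16 and 9 of 36, where it called 45.4% and 23.5% of all genes. The values below are therefore given as levels of these hens.

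The matrix-bound inhibitor TIMP3 had 321, 320 and 326 FPKM in bic15 F1 GC and 298, 226 and 562 FPKM in mes100 F1 GC, against 46.9, 52.8 and 115 FPKM in NC F1 GC. All 6 treated libraries lay above the 3 NC libraries, with log2 fold changes of 1.80 (SE 0.70, adjusted p = 0.226) for bic15 and 1.87 (SE 0.58, adjusted p = 0.2) for mes100. ADAM10 had 70.5, 68.4 and 69.2 FPKM in bic15 and 20.2, 19.1 and 32.8 FPKM in mes100, against 8.05, 7.92 and 4.87 FPKM in NC (log2 fold change 3.27, SE 0.48, adjusted p = 0.145 for bic15, and 1.66, SE 0.39, adjusted p = 0.166 for mes100). ADAM23 had 75.3, 73.1 and 74.7 FPKM in bic15 and 105, 26.3 and 63.5 FPKM in mes100, against 14, 14.2 and 18.7 FPKM in NC (log2 fold change 2.03 and 1.74). For these 3 genes the treated and NC libraries did not overlap. The share of all genes without overlap was not counted, here or for the treated and NC libraries below, so a lack of overlap is given as a description only. The 3 bic15 libraries are of 1 hen, so their closeness says nothing of the spread between hens.

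ADAMTS3 differed widely between the 3 mes100 hens in F1 GC, while the bic15 libraries of 1 hen show no spread between hens. It had 77.7, 77.8 and 76.9 FPKM in bic15 F1 GC and 18.9, 342 and 86.9 FPKM in mes100 F1 GC, against 813, 810 and 466 FPKM in NC F1 GC. All treated libraries were below NC, and all were above the 1.78 to 3.3 FPKM of NC F5 GC, but the log2 fold changes of -3.20 (SE 1.82, adjusted p = 0.335) and -2.26 (SE 1.14, adjusted p = 0.34) did not pass. ADAMTS2 had 0.936, 0.761 and 0.705 FPKM in bic15 and 1.39, 7.26 and 0.643 FPKM in mes100, against 27.1, 22.7 and 36.3 FPKM in NC (log2 fold change -5.40, SE 1.88, adjusted p = 0.201, and -3.49, SE 1.07, adjusted p = 0.2). ADAMTS9, a proteoglycan-cutting protease, had 0.638, 0.668 and 0.593 FPKM in bic15 and 0.436, 1.91 and 2.24 FPKM in mes100, against 20.1, 17.6 and 9.83 FPKM in NC (log2 fold change -4.54, SE 1.21, adjusted p = 0.158, and -3.46, SE 0.72, adjusted p = 0.16). ADAMTS1, its relative, had 0.67, 0.907 and 1.05 FPKM in bic15 and 0.134, 1.38 and 3.76 FPKM in mes100, against 16.9, 15.4 and 8.91 FPKM in NC. In each of these genes every treated library was below every NC library. ADAMTS6 lay above NC in all treated libraries, with 0.862, 0.885 and 0.845 FPKM in bic15 and 1.09, 0.153 and 0.67 FPKM in mes100, against 0, 0.0543 and 0.012 FPKM in NC.

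TIMP2 did not pass for either treatment. It had 204, 203 and 200 FPKM in bic15 and 606, 873 and 361 FPKM in mes100, against 386, 389 and 420 FPKM in NC (log2 fold change -1.16, SE 0.63, adjusted p = 0.321, and 0.38, SE 0.45, adjusted p = 0.667). The mes100 libraries overlapped with NC, and the bic15 hen lay below both. MMP15 had 70.8, 69.1 and 70.2 FPKM in bic15 and 113, 219 and 162 FPKM in mes100, against 146, 144 and 143 FPKM in NC. MMP10 had 2.18, 2.45 and 2.95 FPKM in bic15 and 10.6, 19.1 and 1.44 FPKM in mes100, against 20.5, 20.5 and 29.8 FPKM in NC, and MMP1 was at or below 0.384 FPKM in all 6 treated libraries, against 37.1, 35.8 and 1.12 FPKM in NC. MMP10 and MMP1 were lower in all treated libraries than in NC, MMP15 overlapped between mes100 and NC, and none was called.

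**Figure D3:**
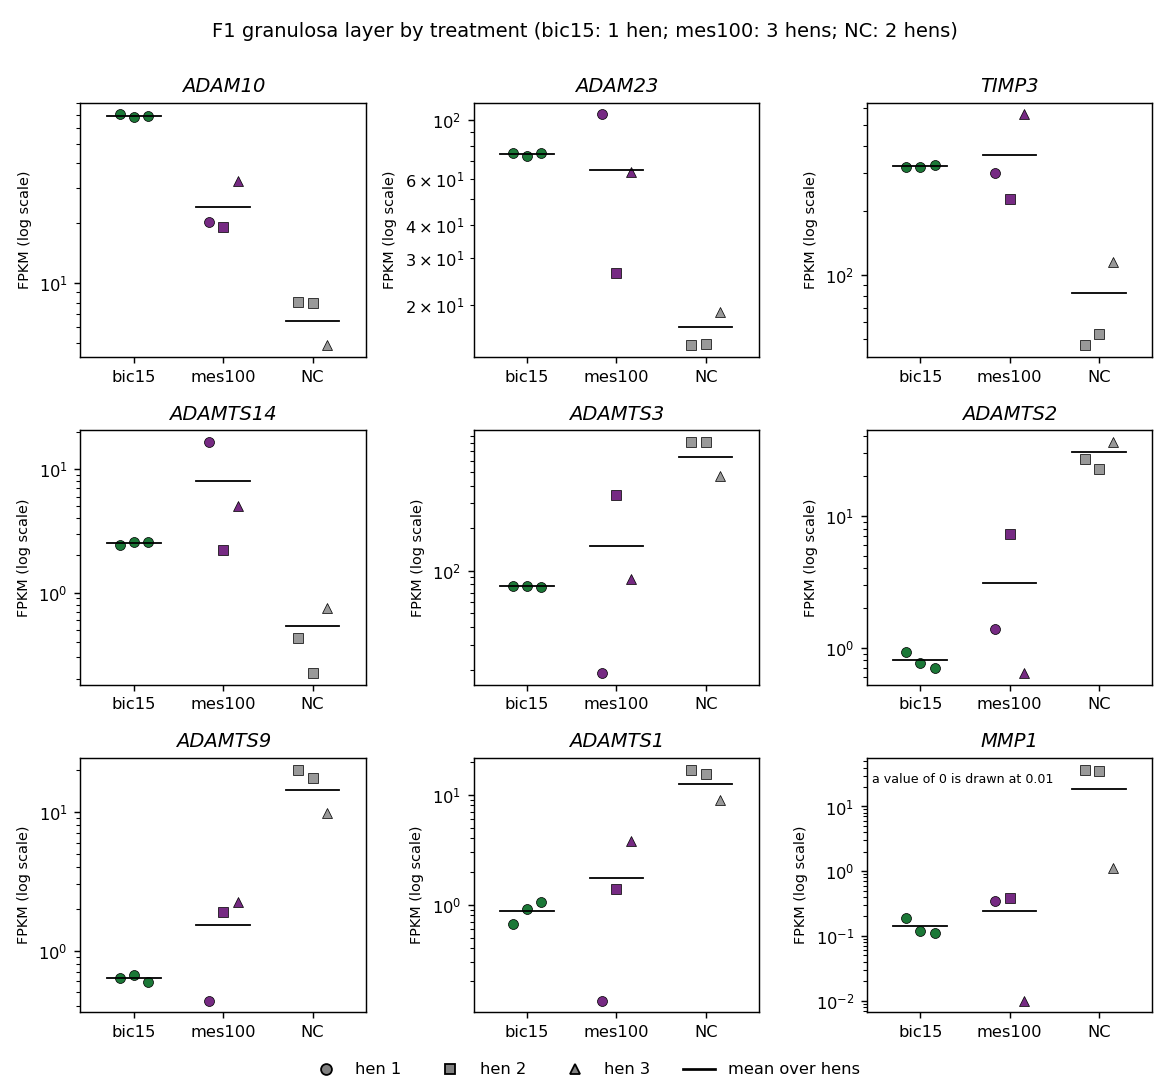
FPKM in F1 GC for bic15, mes100 and NC, log10 axes, with 1 point for each library, the marker shape for the hen and a line at the mean over hens; a value of 0 is drawn at 0.01. TIMP3 and ADAM10 lie higher and ADAMTS3 and ADAMTS9 lower in the 6 treated libraries than in the 3 NC libraries, with the 3 bic15 libraries from 1 hen.

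PLAU and TIMP4 were low in NC F1 GC and higher in some treated libraries. PLAU had 3.46, 3.19 and 3.27 FPKM in bic15 and 0.365, 0.104 and 11.8 FPKM in mes100, against 0.22, 0.229 and 0.0799 FPKM in NC (log2 fold change 4.24, SE 2.42, adjusted p = 0.337, and 4.44, SE 2.22, adjusted p = 0.337). The mes100 value rested on replicate 3, which also had the most ADAMTS15 (13.8 FPKM, against 0.239 and 1.1 FPKM in the other mes100 libraries and 0.285, 0.459 and 0.905 FPKM in NC). TIMP4 had 0.377, 0.371 and 0.557 FPKM in bic15 and 0.0428, 0.0277 and 0.279 FPKM in mes100, against 0.0175, 0 and 0 FPKM in NC. SERPINE2 had 2.63, 2.37 and 2.19 FPKM in bic15 and 0.175, 1.91 and 1.85 FPKM in mes100, against 6.06, 6.08 and 2.99 FPKM in NC, and PLAT stayed between 0.475 and 2.89 FPKM in all 9 libraries. ADAMTS18, with 0 counts in NC F1 GC, had 236 counts in bic15 (at least 63.5-fold higher by the floor) and 102 in mes100 (at least 30-fold higher), at 0.28 FPKM or less.

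Markers of other cells differed between these groups too. The theca and stroma list summed to 13.1 to 13.6 FPKM in bic15 and 30.7 to 42.2 FPKM in mes100, against 51.8 to 149 FPKM in NC, with 2, 1 to 3, and 2 to 7 of its 12 markers at 1 FPKM or more. Not all its genes followed the sum. MYH11 was higher in bic15 (0.717, 0.641 and 0.641 FPKM) than in NC (0.16, 0.189 and 0.0144 FPKM), and COL1A2 overlapped between bic15 and NC. Endothelial markers summed to 8.91 to 9.37 FPKM in bic15 and 0.468 to 1.46 FPKM in mes100, against 0.382 to 1.29 FPKM in NC. PECAM1 alone (9.33, 8.86 and 8.67 FPKM) made up most of the bic15 sums. The list of 5 leukocyte genes summed to 219 to 227 FPKM in bic15 and 50.9 to 265 FPKM in mes100, against 96.2 to 263 FPKM in NC. PTPRC, the common leukocyte antigen, had 4.28, 4.41 and 4.02 FPKM in bic15 and at most 0.0351 FPKM in mes100, against 0.0669, 0.108 and 0.0185 FPKM in NC. The rest of the leukocyte list did not follow it as a whole. CD79B was higher in bic15 (0.272, 0.548 and 0.338 FPKM) than in NC (0.0258, 0 and 0.113 FPKM). CD74 (214, 222 and 215 FPKM, against 261, 249 and 95.6 FPKM), CD3D (0.874, 0.81 and 0.406 FPKM, against 1.25, 1.37 and 0.426 FPKM) and CD3E overlapped between bic15 and NC. Their part in the values above was not tested.

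In F1 TC no member passed for either treatment. For bic15, 0 of 46 members passed (0.0403% of all genes) and 9 had an unadjusted p under 0.05 (13.8% of all genes had one), and for mes100 0 of 46 passed (0% of all genes) and 12 had one (9.88%). DESeq2 called ADAM10 for bic15, and ADAMTS13, ADAMTS17 and MMP1 for mes100 (2.38% and 1.43% of all genes). The dominant genes overlapped between groups. MMP9 had 2010, 2030 and 1250 FPKM in bic15 and 2440, 1680 and 2570 FPKM in mes100, against 1730, 2590 and 1980 FPKM in NC. TIMP2 had 1220, 1160 and 1150 FPKM in bic15 and 1180, 1340 and 1290 FPKM in mes100, against 1140, 1260 and 1290 FPKM in NC, with log2 fold changes of -0.15 (SE 0.10) and -0.04 (SE 0.09). The spread of TIMP2 between hens was thus small in TC.

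The 2 genes that marked NC F1 TC against earlier stages had these values in treated hens. PLAT had 25.9, 25.6 and 16.3 FPKM in bic15 and 25.6, 24.6 and 18.2 FPKM in mes100, against 28.8, 39 and 31.3 FPKM in NC (log2 fold change -0.74, SE 0.24, adjusted p = 0.319, and -0.65, SE 0.21, adjusted p = 0.435). ADAMTS8 had 5.38, 5.35 and 4.13 FPKM in bic15 and 6.66, 28.6 and 3.47 FPKM in mes100, against 20.2, 39.9 and 25.4 FPKM in NC (bic15, log2 fold change -2.66, SE 0.88, adjusted p = 0.319). All bic15 libraries were below NC for both, while mes100 overlapped with NC in ADAMTS8. ADAMTS13 had 6.19, 6.47 and 8.27 FPKM in bic15 and 12.6, 10.2 and 8.45 FPKM in mes100, against 5.11, 5.26 and 5.39 FPKM in NC, where mes100 reached a log2 fold change of 0.89 (SE 0.17, adjusted p = 0.318). Markers of other cells differed here as well. Red blood cell markers summed to 430 to 705 FPKM in bic15 and 1210 to 1630 FPKM in mes100, against 332 to 453 FPKM in NC, and endothelial markers to 131 to 143 FPKM in bic15 and 169 to 226 FPKM in mes100, against 77.7 to 139 FPKM in NC. CYP17A1, a steroid enzyme of the theca cells themselves, had 967, 891 and 835 FPKM in bic15 and 3.64, 6.27 and 6.71 FPKM in mes100, against 17.3, 27 and 14.4 FPKM in NC. In NC TC of the earlier stages it had 1270, 1210 and 753 FPKM at 6 mm and 927, 954 and 563 FPKM at F5. The bic15 F1 values of CYP17A1 thus lay within the range of NC F5 TC or close to it. CYP19A1, another steroid enzyme of the theca list, did not follow it. It had 0.301, 0.361 and 2.31 FPKM in bic15 F1 TC, against 2.45, 2.46 and 2.98 FPKM in NC F1 TC. In NC F5 TC it had 167, 94.2 and 74.9 FPKM. The part of these markers, of CYP17A1 and of CYP19A1 in the values above was not tested.

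**Figure D4:**
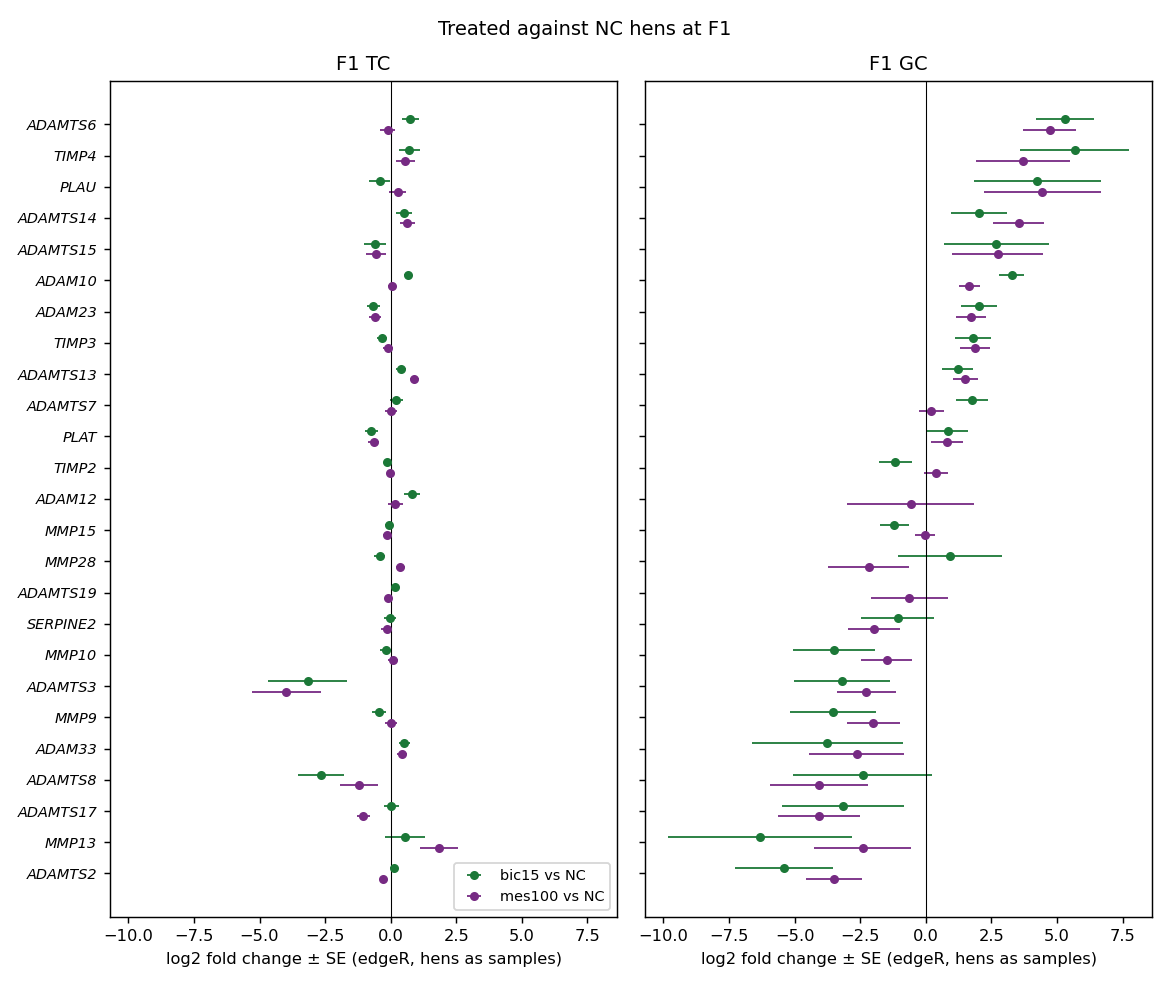
Log2 fold change over NC in F1 with its standard error for bic15 and mes100, TC and GC, in named members, sorted by the mean change in GC, leaving out comparisons with a group at 0 counts. GC values run from positive ones for ADAMTS6 (5.30 for bic15) at the top to ADAMTS2 (-5.40 for bic15) at the bottom, while TIMP2 in TC lies at -0.15 and -0.04, and none passed after adjustment.

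The treatment effect was tested for a difference between layers in a fit of all F1 groups. For bic15 3 of 48 members passed (1.03% of all genes), with ADAMTS19 (TC minus GC 7.26, SE 1.16, adjusted p = 0.028) and ADAM33 (4.44, SE 0.91, adjusted p = 0.05) higher and ADAM10 (-2.45, SE 0.47, adjusted p = 0.0436) lower in TC than in GC. For mes100 4 of 48 passed (2.38% of all genes), with ADAMTS12 (6.32, SE 0.80, adjusted p = 0.0124), ADAMTS9 (3.61, SE 0.72, adjusted p = 0.0332) and ADAM33 (3.23, SE 0.70, adjusted p = 0.043) higher and ADAMTS6 (-4.72, SE 0.90, adjusted p = 0.0304) lower. For ADAM10 the bic15 over NC log2 fold change was 0.65 in TC and 3.27 in GC. ADAM33, ADAMTS12 and ADAMTS19 were at or under 0.145 FPKM in all F1 GC libraries, and the GC libraries of ADAMTS19 in bic15 and of ADAMTS12 in mes100 held 0 counts, so their fitted values depend on the prior count. With the hen as a block 0 members passed in either comparison. Leaving out 1 hen gave 0 to 9 calls for bic15, with 0 without NC F1 TC hen 2 or 3 or any treated TC hen, and 1 to 12 for mes100, with 1 without NC F1 GC hen 2, NC F1 TC hen 2 or 3 or any treated TC hen.

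At F5 and 6 mm no member passed for either treatment in either layer, with 34 to 47 members tested. The share of all genes called was 0% in 5 of these 8 comparisons and 0.0122%, 0.0296% and 0.0354% in mes100 F5 TC, bic15 6 mm TC and mes100 6 mm TC. An unadjusted p under 0.05 was found for 9 members in bic15 F5 GC (9.70% of all genes), 7 in mes100 F5 GC (15.2%), 4 in bic15 F5 TC (2.97%), 6 in mes100 F5 TC (10.1%), 2 in bic15 6 mm GC (4.66%), 12 in mes100 6 mm GC (23.3%) and 2 each in 6 mm TC (3.72% for bic15 and 5.05% for mes100). DESeq2 called 3, 4, 1, 1, 0, 6, 0 and 0 in the same order (1.62%, 2.27%, 0.153%, 1.84%, 0.188%, 10.7%, 0.209% and 0.228% of all genes). TIMP3 at 6 mm had 133, 207 and 168 FPKM in bic15 GC and 175, 169 and 162 FPKM in mes100 GC, against 23.9, 106 and 30.3 FPKM in NC GC, again without overlap but with adjusted p of 0.785 and 0.166. PLAU reached 615 FPKM in bic15 6 mm GC replicate 2, against 12.8 and 33.1 FPKM in the other bic15 libraries and 14.5 to 44.2 FPKM in NC, and this library had 0.587 FPKM of the granulosa gene AMH, against 213 and 643 FPKM in the other bic15 libraries. In mes100 6 mm GC 12 members were called without NC hen 2, and the share of all genes called in that refit is not given here. The refit keeps NC hens 1 and 3, with 2690 and 2530 FPKM of the theca list, and leaves out the NC hen with 83.2 FPKM. The mes100 6 mm GC libraries held 31.2 to 65.1 FPKM of that list. The part of theca material in these 12 calls was not tested. The theca markers of bic15 F5 GC hen 2 reached 11700 FPKM, and this library had 182 FPKM of MMP9, against 0.155 and 0.0302 FPKM in the other bic15 F5 GC libraries. Its granulosa list summed to 263 FPKM, against 2290 and 2270 FPKM in the others. INHA was at 0 FPKM, against 1560 and 1550 FPKM, while AMH was higher, at 85.4 FPKM against 24.8 and 7.54 FPKM. The bic15 F5 GC group was thus not alike in its markers. The part of this library in the 9 members with an unadjusted p under 0.05 was not tested.

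**Figure D5:**
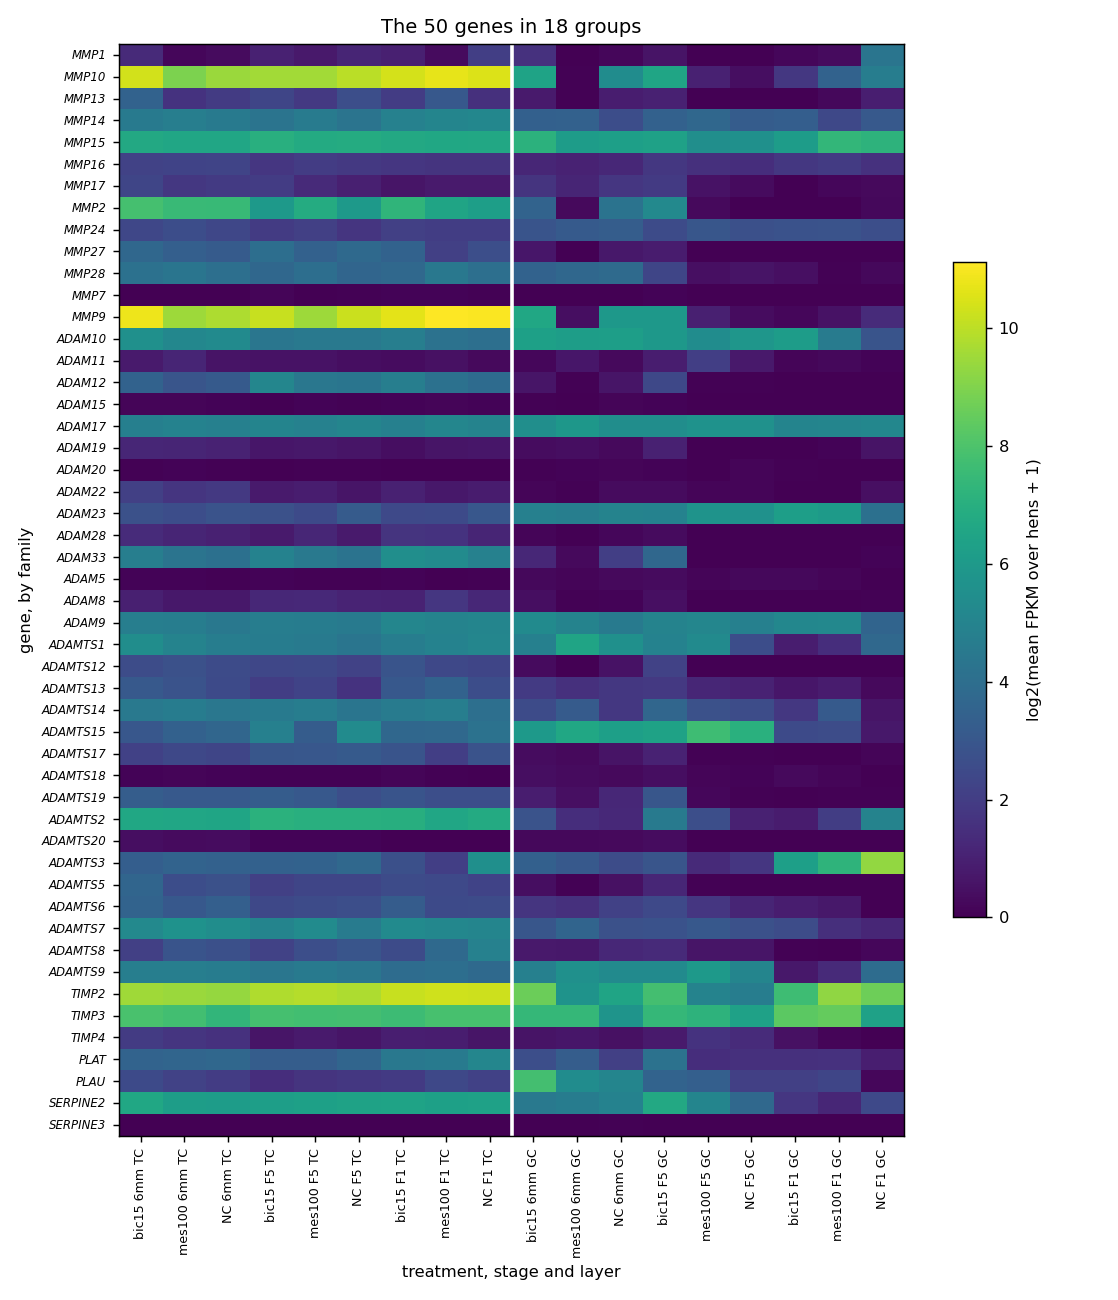
Log2 of the mean FPKM over hens plus 1 for the 50 genes (down the page, by family) in the 18 groups, TC left and GC right of the white line, with yellow for the highest values. MMP9 and MMP10 are high in TC, with NC means of 697 to 2100 FPKM, and ADAMTS3 stands out in F1 GC of NC hens.

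Other genes of matrix turnover changed beside the proteases in F1 GC. Between NC F1 and F5 GC, where 20.3% of all genes passed (8.26% higher and 12.0% lower), 5 of 16 tested inhibitors and cofactors did, CST3, SERPINC1, SERPINF1 and THBS1 higher and RECK lower. RECK, a membrane-anchored inhibitor of MMPs, had 0.192, 0.155 and 0.117 FPKM in F1, against 2.3, 3.39 and 3.87 FPKM in F5 (log2 fold change -3.95, SE 0.40, adjusted p = 0.00213), and 3.25, 2.77 and 2.82 FPKM in bic15 F1 GC. Of 24 other proteases and activators 8 passed, F2R, HTRA1, PCSK7 and S100A10 higher and ADAMTSL2, DPP4, HTRA3 and PCSK5 lower. HTRA1, a secreted serine protease, had 77.5, 72.8 and 58.4 FPKM in F1, against 2.72, 3.47 and 8.6 FPKM in F5 (log2 fold change 4.24, SE 0.54, adjusted p = 0.004).

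Of 19 matrix substrates 7 passed, beside the same 20.3% of all genes, FBLN1, FN1, HAPLN3 and NID1 higher and LAMA2, TNC and VCAN lower in F1 GC. FN1, fibronectin, had 2680, 2800 and 3080 FPKM in NC F1 GC, against 58.9, 172 and 105 FPKM in NC F5 GC (log2 fold change 5.17, SE 0.50, adjusted p = 0.00199). VCAN, versican, a proteoglycan that ADAMTS proteases such as ADAMTS1 and ADAMTS15 cut, had 1.1, 1.25 and 0.557 FPKM in F1, against 42.7, 96.7 and 77.6 FPKM in F5 (log2 fold change -5.94, SE 0.59, adjusted p = 0.00207). The libraries of the stages did not overlap for either. In treated F1 GC, FN1 had 297, 294 and 290 FPKM in bic15 and 1090, 1650 and 454 FPKM in mes100, and VCAN had 36.3, 36.1 and 34.4 FPKM in bic15 and 0.745, 0.691 and 11.6 FPKM in mes100, and no gene of the 3 lists passed in a comparison of treated with NC hens within a layer at F1. In the tests of a difference between layers, ADAMTSL1 and F2R (higher in TC) passed for both treatments, 2 of 27 other proteases and activators each. Of 23 matrix substrates, 2 passed for bic15, NID1 (higher in TC) and LAMA2 (lower in TC), and 1 for mes100, LAMA2 (lower in TC). The shares of all genes were 1.03% for bic15 and 2.38% for mes100.

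Between NC F1 TC and GC, 3 of 18 inhibitors and cofactors (all higher), 15 of 27 other proteases and activators (13 higher and 2 lower) and 15 of 23 matrix substrates (14 higher, FN1 lower) passed, beside 23.0% of all genes (16.9% higher and 6.08% lower). The median log2 fold changes of these lists were 0.96, 1.77 and 3.63, beside 0.19 over all genes. Between NC F1 and F5 TC 0 of 19, 0 of 27 and 3 of 23 passed, HAPLN3 and LAMA2 higher and LUM lower, beside 2.13% of all genes.

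The remaining members were low or did not pass. Of the 50 genes, 7 had a mean under 1 FPKM in every group, 22 fell outside the rule for named genes, and 35 passed in at least 1 comparison that included F1. The share of all genes that passed in at least 1 of these comparisons is not given here. Up to 23.0% of all genes passed in a single one, so the 35 are given as a description only. ADAM10 shares 15.57% of its exon bases with LIPC, whose mean was 0.467 FPKM in bic15 F1 GC and 0.0279 FPKM in NC F1 GC, and reads of overlapping genes cannot be told apart without strand.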

How the data were processed

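RNA was sequenced from GC and TC layers of 6 mm, F5 and F1 follicles. According to the submitters' notes and methods, the authors aligned reads with HISAT2 2.1.0 to chicken build Gallus_gallus-5.0 with StringTie 1.3.4d for quantification. The deposited table held the authors' whole-number read counts per gene, not normalized. The deposited transcript files gave the authors' FPKM, summed here over the transcripts of a gene. Strand was not used, so overlapping genes share reads, and duplicates had been removed before deposit. The 5 unnamed mitochondrial loci were left out (0.0576% to 0.605% of counts).

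Counts of libraries from the same hen were summed, since different hens are the replicates and same-hen libraries were closer to each other (chi-square per degree of freedom 16.8 to 24.9 over 5 pairs) than libraries of different hens (52.8 to 1520 over 49 pairs). FPKM were averaged in the same way. Counts were tested with edgeR 4.0.16 in R 4.3.3 (quasi-likelihood F test, TMM, filterByExpr) with Benjamini-Hochberg adjustment over all genes, and SE is the absolute log2 fold change over the square root of F. Calls required adjusted p no higher than 0.05 and 1 FPKM or more on average in a compared group, plus, between stages or layers, a log2 fold change of 1.5 or more in either direction. Tests used only the compared groups, except in the treatment comparisons at F1 and in interactions. The fitting was tried on simulated data for some of the comparisons only. A group at 0 counts is given a bound from a floor of 3 counts over the group, which covers counting error only.

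NC hens gave both layers and all stages, except that hen 1 had no F1 GC library. Samples of the same NC hen are thus paired by the animal, incompletely wherever NC F1 GC is compared. The residuals of the same NC hen correlated at -0.04 to 0.27 between layers (8 pairs, 3 over 0.1) and -0.31 to 0.45 between stages (16 pairs, 11 over 0.1). Between treatments only a number is shared (-0.61 to 0.31 over 31 pairs, 9 over 0.1). Named were all TIMP, plasminogen and SERPINE members, the 5 highest of each layer at F1, and called members up to the 25 with the smallest adjusted p, and genes of fixed lists of inhibitors, proteases, substrates and cell markers. Members, lists and rules were chosen with earlier results of these data known. Alternatives were DESeq2 1.42.0, RLE size factors, no low-count filter, the fold threshold dropped, libraries as labelled, the hen as a block and leaving out each hen. Figures were drawn with matplotlib 3.10.9 in Python 3.11.15.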

Additional observations from a re-analysis of the deposited data

Results flagged for a closer look

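The changes below differed between the layers by the interaction term of edgeR's test. In NC hens, the log2 fold change of F1 over F5, TC minus GC, was 7.15 for TIMP4, 6.16 for ADAMTS15, 5.31 for ADAMTS6, 4.38 for PLAU, 3.20 for ADAMTS13, 2.26 for ADAM10, 2.13 for ADAMTS7, 2.12 for PLAT and 1.41 for ADAM9. It was -6.59 for ADAMTS3, -6.17 for MMP10, -5.50 for ADAMTS2, -3.90 for TIMP2 and -2.16 for MMP15. For MMP1 (-12.94), MMP13 (-11.68) and ADAMTS12 (-5.80) the F5 GC libraries held 0 counts, so the fitted value depends on the prior count and is no bound. ADAMTS3 lost its call without F1 GC hen 2 or F5 GC hen 3 (adjusted p = 0.0517 and 0.0551), and PLAT without F1 TC hen 2 or 3, F5 GC hen 2 or F5 TC hen 2 or 3 (0.0509 to 0.0682).

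The log2 fold change of bic15 over NC at F1, TC minus GC, was 7.26 for ADAMTS19, 4.44 for ADAM33 and -2.45 for ADAM10, and each lost its call with the hen as a block (adjusted p = 0.373). The same difference for mes100 was 6.32 for ADAMTS12, 3.61 for ADAMTS9, 3.23 for ADAM33 and -4.72 for ADAMTS6, and under the block ADAMTS12, ADAM33 and ADAMTS6 had adjusted p-values of 0.259, 0.274 and 0.267. The GC levels of ADAM33, ADAMTS12 and ADAMTS19 were at or below 0.145 FPKM in all F1 libraries.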

How the results depend on the processing

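Over the alternatives, 775 values of named genes kept their direction and their side of the threshold, 110 kept their direction but lost the call, 81 of them on leaving out a hen, and 0 turned round. Of the 775, 406 came from leaving out a hen, in refits of the same calls that share most hens. A further 47 came from dropping the fold threshold in the main fit, which could not lose a call. The counts of called members were less stable, with 76 rated as moved and 221 as the same. With RLE size factors all 68 kept their calls, and with DESeq2 all 67. DESeq2 called 9 members in F5 against 6 mm GC, 4 in F5 against 6 mm TC, 5 (bic15) and 9 (mes100) in F1 GC, 1 and 3 in F1 TC, 17 and 14 for their TC minus GC difference (9.94% and 9.98% of all genes), 3 and 4 in F5 GC, 1 and 1 in F5 TC and 6 for mes100 in 6 mm GC. With libraries as labelled, 16 and 9 members were called in F1 GC for bic15 and mes100, and 23 and 13 for the layer difference (27.0% and 14.4% of all genes). Without the fold threshold TC gave 5 for F1 against F5, 16 for F1 against 6 mm and 6 for F5 against 6 mm, and F5 against 6 mm TC gave 0 without a low-count filter.

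With the replicate block by hen, pairing the NC animals, 0 members were called for F1 against 6 mm GC, F1 against F5 TC, F5 against 6 mm TC and both layer differences of treatment, 23 of 68 named calls were lost, and numbers shared between treatments pair no animals. Alternatives chosen after seeing the data gave 29 for TC against GC at 6 mm and 0 for F5 against 6 mm GC without 6 mm GC hens 1 and 3, and 0 for F1 against F5 TC without F1 TC hen 1 and F5 TC hens 2 and 3. Each leaves 1 hen in a group, assumed to vary like the other group.

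Leaving out each hen gave 6 to 22 members for TC against GC at 6 mm, 0 to 10 for F5 against 6 mm GC, 0 to 2 for F1 against F5 TC, 2 to 7 for F1 against 6 mm TC and 0 to 5 for F5 against 6 mm TC. For treatments it gave 0 to 2 (bic15) and 0 to 3 (mes100) in F1 GC, 0 to 1 for bic15 in F1 TC, 0 to 9 and 1 to 12 for the layer differences, and 0 to 12 for mes100 in 6 mm GC. The causes were not tested. Some counts of these alternatives, here and above, have no share of all genes beside them. Such a count tells only how the calls of the members moved, and not whether all genes moved alike. F1 GC had 1 bic15 hen and 2 NC hens, and depth was not varied.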
